A study of Mus musculus with 14 samples.

Results

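Parvalbumin-expressing interneurons (PV neurons) of the hippocampus were compared between mice that became susceptible to chronic social defeat stress (CSDS) and mice that were not defeated. The 7 libraries of this comparison, 3 susceptible and 4 non-defeated, were chosen by their labels from the 14 of the series, and all 21298 genes with enough counts were tested among the 39017 in the table. All mice carried a Cre-dependent EGFP-L10a allele and PV-Cre (EGFP-L10a+; PV-Cre+), were male, of C57BL/6 background, and were 8 to 12 weeks old when the behavioral experiments began. Susceptible mice had been exposed to CSDS and had a social interaction ratio below 1, that is, they spent less time near a caged aggressor than near the empty cage. Non-defeated mice carried the same alleles and were not defeated. The other 7 libraries, 4 of resilient mice, which were defeated but had a ratio above 1, and 3 of total hippocampal RNA of non-defeated mice before purification (input), entered the same statistical model. They are cited where they show how a gene behaved elsewhere. Each sample held both hippocampi of 1 mouse, so each library is a separate animal. Libraries are named here by their group and the number in the sample name: non-defeated 1, 6, 9 and 11, and susceptible 2, 4 and 10.

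PV neurons are fast-spiking GABAergic interneurons that inhibit the cell bodies and initial segments of principal neurons, and so set the timing of hippocampal output. In translating ribosome affinity purification (TRAP), Cre recombinase expressed from the Pvalb locus switches on a ribosomal protein, L10a, fused to EGFP, and tagged ribosomes are pulled from the homogenate with the RNA they carry. The RNA recovered is mainly that of PV neurons, with a remainder from other cells that differs between preparations, and a change in it can reflect either transcript abundance or ribosome loading. The tag also marks any other cell in the homogenate in which PV-Cre was active.

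Between 72098582 and 94726962 reads were counted on genes in the non-defeated libraries, and between 73348628 and 77566993 in the susceptible ones. Pvalb, which encodes parvalbumin, had 1507, 1548, 1265 and 1538 counts relative to library size (CPM, with edgeR's TMM factors) in the non-defeated libraries 1, 6, 9 and 11, and 1443, 1600.3 and 1241 in the susceptible libraries 2, 4 and 10. The groups overlapped, with a log2 fold change of -0.04 (SE 0.13, adjusted p = 0.928). The 3 input libraries held 20.02 to 31.9 CPM of Pvalb. Of 15 markers of PV neurons, none differed at an unadjusted p under 0.05, and their median log2 fold change was -0.01. The list was lowest in susceptible 10, whose mean level was at -0.33 relative to the non-defeated mean on the log2 scale (range of non-defeated libraries -0.12 to 0.12), with a summed level of 6656 CPM against 8180 to 9598. Susceptible 2 and 4 lay 0.14 and 0.17 above that mean, and susceptible 10 is also the library with the highest choroid plexus and interferon lists described later. Libraries of the same group differed by more than counting error: chi-square divided by its degrees of freedom was 17.5 to 119 for pairs within a group. The closest pairs were non-defeated 9 with 11 and non-defeated 1 with 6, at 17.5 and 22.5. In the non-defeated group, libraries numbered 7 and above thus stood apart from those numbered 6 and below. For some genes and classes, differences are therefore also given within libraries 1 to 6 (2 non-defeated, 2 susceptible) and within libraries 7 to 11 (2 non-defeated, 1 susceptible). Where they are not given, the direction need not hold within both sets. What the sample numbers stand for is not given in the sources used here.

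Transcripts of red blood cells and of the blood vessel wall were prominent among those higher in susceptible mice, and a small set of other transcripts was lower. In bulk RNA of this kind, more cells of a type and more RNA per cell cannot be told apart. In edgeR's quasi-likelihood test with Benjamini-Hochberg adjustment, 8 of the 21298 genes passed an adjusted p of 0.05, or 0.0376% of those tested. Of these, 3 (0.0141%) rose (Hba-a1, Hba-a2 and Pglyrp1) and 5 (0.0235%) fell (Xpo6, 4930500M09Rik, Gm20691, and ENSMUSG00000067833 and ENSMUSG00000072829, which have no name in the annotation used). More than 2-fold differences at this threshold were seen for 4 genes (0.0188%), the 3 that rose and 4930500M09Rik. At an unadjusted p under 0.05, 1407 genes (6.61%) were higher and 1428 (6.7%) lower. The 3 susceptible libraries lay above all 4 non-defeated ones for 897 genes (4.21%) and below them for 938 (4.4%), or 8.62% in all. The median log2 fold change over all genes was 0.01, and the lower and upper quartiles were -0.18 and 0.20. The number called rested on single libraries: without non-defeated 9, non-defeated 11 or any 1 of the 3 susceptible libraries, edgeR's quasi-likelihood test called 0 genes, with 940 to 1923 genes per direction at an unadjusted p under 0.05. It called 1 gene without non-defeated 1 and 6 genes without non-defeated 6, of which 1 and 4 were among the 8. With DESeq2 on the 7 libraries, 114 genes were called, the 8 included.

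**Figure D1:**
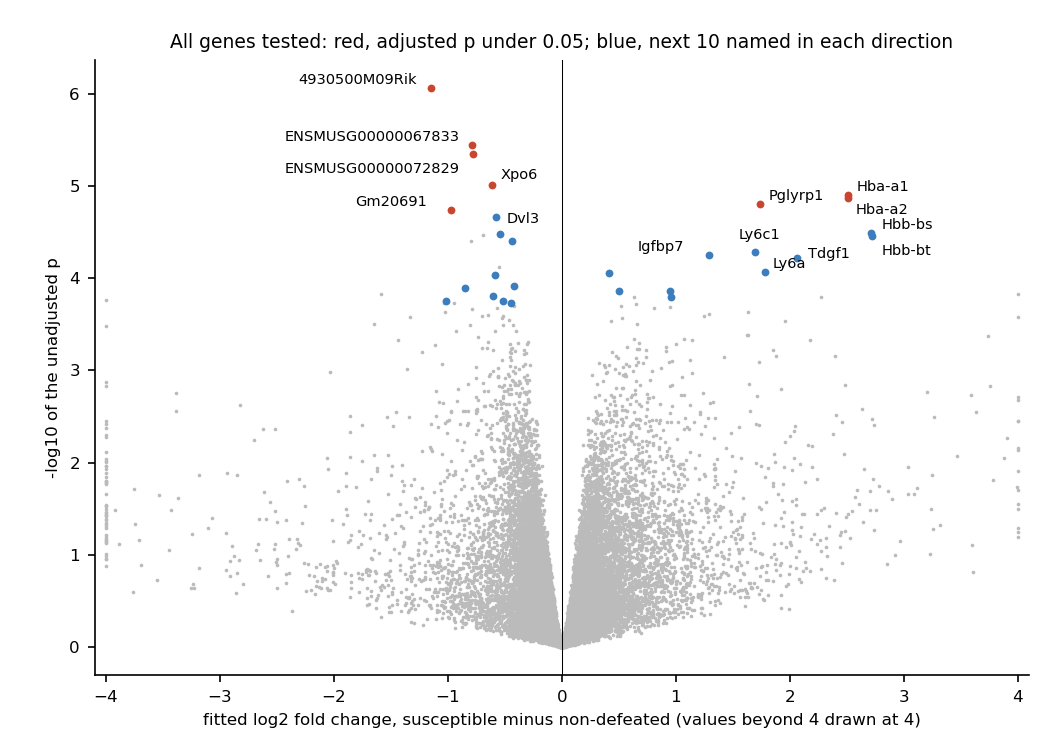
Fitted log2 fold change of susceptible over non-defeated libraries (x axis) against the -log10 of the unadjusted p (y axis) for each of the 21298 genes tested. The 8 genes called at an adjusted p under 0.05 are red, and the next 10 named genes in each direction are blue; higher globin and vessel transcripts lie at log2 fold changes above 1, while most of the lower genes lie between 0 and -1.

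The largest increase among the called genes was in globins. Hba-a1 and Hba-a2, neighboring genes on chromosome 11 (mm10, 32283511-32284465 and 32296489-32297298, plus strand), each encode the alpha chain of adult hemoglobin. Hbb-bs and Hbb-bt, on the minus strand of chromosome 7 (103826534-103828096 and 103812524-103813996), encode the beta chains. Their transcripts are near copies: the first-listed transcripts of the alpha pair were identical at 99.8% of aligned bases and those of the beta pair at 92.7%, so reads within a pair could have been assigned to either gene. The 150 bases before each start in RefSeq (GRCm38.p6, the mm10 assembly) are shown because the 4 genes were higher by similar amounts. GENCODE, the source of the gene coordinates above, places the starts elsewhere. By it, the windows of Hba-a1 and Hbb-bs lie within the gene, and those of Hba-a2 and Hbb-bt overlap it in part. Capitals mark CACCC and CCAAT on either strand, the boxes known from globin promoters.
Hba-a1, chr11:32283522-32283671, plus strand: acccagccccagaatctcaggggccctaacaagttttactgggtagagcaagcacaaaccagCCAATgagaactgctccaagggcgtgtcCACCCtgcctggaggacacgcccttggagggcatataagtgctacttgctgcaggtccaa
Hba-a2, chr11:32296342-32296491, plus strand: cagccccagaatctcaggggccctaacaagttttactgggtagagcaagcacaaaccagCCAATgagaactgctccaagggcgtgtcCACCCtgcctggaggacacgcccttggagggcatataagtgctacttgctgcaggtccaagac
Hbb-bs, chr7:103827929-103828078, minus strand: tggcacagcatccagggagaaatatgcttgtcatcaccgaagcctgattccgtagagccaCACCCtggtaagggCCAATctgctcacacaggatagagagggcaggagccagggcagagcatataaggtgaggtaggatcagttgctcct
Hbb-bt, chr7:103813924-103814073, minus strand: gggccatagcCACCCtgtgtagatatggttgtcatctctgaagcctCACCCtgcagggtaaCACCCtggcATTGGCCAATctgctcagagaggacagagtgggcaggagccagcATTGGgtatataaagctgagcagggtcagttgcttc

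The windows of the alpha pair were identical over 147 aligned bases and shifted by the difference in annotated start, while those of the beta pair matched at 73.6% of aligned bases. All 4 windows held both boxes, as did 8.84% of the 27025 windows of the same length, 1 per gene symbol. In Hbb-bt, the marked stretch nearest the center is a palindrome in which CCAAT occurs on both strands, side by side. Such a match describes the letters and is not a measured binding site.

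Hba-a1 had 51.2, 53.1, 37.4 and 72.5 CPM in non-defeated libraries 1, 6, 9 and 11, and 277, 295 and 344 CPM in susceptible libraries 2, 4 and 10. All susceptible values were above all non-defeated ones, with a log2 fold change of 2.51 (SE 0.39, adjusted p = 0.0475). Hba-a2 gave nearly the same values, 36.7 to 71.8 CPM against 272 to 339. Hbb-bs had 27.4, 32.7, 22.7 and 53.5 CPM in non-defeated mice and 188, 185 and 299 in susceptible ones, a log2 fold change of 2.72 (SE 0.46) that missed the threshold (adjusted p = 0.0569). Hbb-bt had 17.7 to 41.8 CPM against 142 to 236, also at 2.72 (adjusted p = 0.0569). Summed over the 4 genes, globin reads made up 167 ± 52.7 CPM (SD, n = 4) in non-defeated and 1004 ± 185 CPM (SD, n = 3) in susceptible libraries. Resilient libraries held 278 ± 212 (SD, n = 4), with resilient 5 alone at 588, and input 875 ± 104 (SD, n = 3). The globin level of susceptible TRAP libraries thus lay in or above the range of unpurified homogenates of non-defeated mice. Against resilient mice, Hba-a1 also rose (log2 fold change 1.76, adjusted p = 0.0411), in a comparison in which 403 genes (1.89%) were called. The alpha to beta ratio lay between 1.51 and 2.08 in non-defeated and between 1.28 and 1.78 in susceptible libraries, ranges that overlapped. When the 7 libraries alone were fitted, the 4 globins and Ly6a were the 5 genes called, all higher.

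The median log2 fold change of the 10 tested genes of the erythroid lineage was 1.45. Of these, 6 (60%, against 6.61% of all genes) were higher at an unadjusted p under 0.05 and none lower. Besides the globins these included Alas2, the first enzyme of heme synthesis in red cells (log2 fold change 2.72, SE 0.78, unadjusted p = 0.00339). Alas2 was singled out after its value was seen. Fech, Slc25a37 and Bpgm, which other cells use too, had log2 fold changes of -0.08, 0.30 and 0.19. The class was higher by a median of 1.31 within libraries 1 to 6 and 1.69 within libraries 7 to 11.

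**Figure D2:**
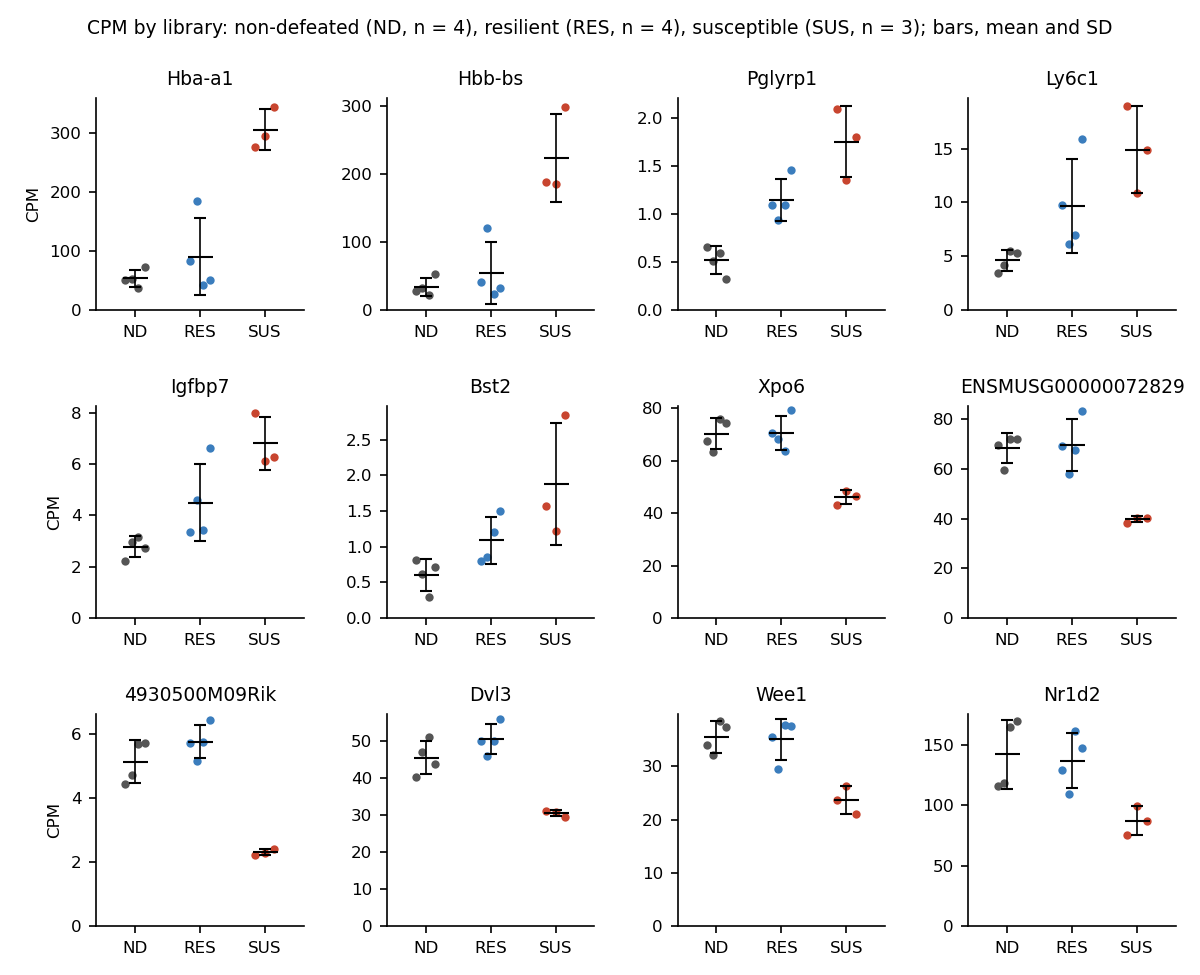
CPM (y axis) of 12 named genes in each library of non-defeated (ND, n = 4), resilient (RES, n = 4) and susceptible (SUS, n = 3) mice, with the mean and SD. For all 12 genes the susceptible points lie apart from the non-defeated ones, above them for the first 6 genes and below them for the last 6, and for those 6 the resilient points overlap the non-defeated ones.

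Transcripts of the vessel wall were higher next to the globins. Pglyrp1, which encodes a secreted peptidoglycan recognition protein made by neutrophils and by brain endothelium, had 0.655, 0.51, 0.597 and 0.323 CPM in non-defeated libraries 1, 6, 9 and 11 and 2.09, 1.35 and 1.8 CPM in susceptible libraries 2, 4 and 10. It rose by a log2 fold change of 1.74 (SE 0.27, adjusted p = 0.0475) from 23 reads in the library with the fewest. Ly6c1, a surface protein of brain endothelial cells, had 3.47 to 5.48 CPM against 10.9 to 19 (1.70, SE 0.30, adjusted p = 0.0689). Ly6a, of the same gene family, had 2.56 to 3.67 CPM against 7.95 to 12.8 (1.78, SE 0.33, adjusted p = 0.0893). Igfbp7, a secreted IGF-binding protein abundant in vessels, had 2.22 to 3.17 CPM against 6.13 to 7.98 (1.29, SE 0.23, adjusted p = 0.0703). In none of these genes did the groups overlap.

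Among 18 endothelial markers, 6 (33.3%, against 6.61% of all genes) were higher at an unadjusted p under 0.05 and none lower. The list had a median log2 fold change of 0.65, and 17 of the 18 had a higher fitted level. Apart from Pglyrp1, Ly6c1 and Ly6a, those past this threshold were Itm2a (0.87), Egfl7 (0.57) and Cldn5, the tight junction protein of the blood-brain barrier (1.32), named after their values were seen. Bsg, the most abundant member, had 344, 363, 332 and 371 CPM in non-defeated and 437, 390 and 365 in susceptible libraries, which overlapped (log2 fold change 0.17, adjusted p = 0.435). Summed over the list, levels were 393 to 447 CPM in non-defeated, 469 to 547 in susceptible and 392 to 534 in resilient libraries, with no marker at 0. Input libraries, of non-defeated mice, held 231 to 249 CPM, and the fitted median in resilient TRAP over input was 1.01. This median compares defeated with non-defeated mice as well as TRAP with input. For the astrocyte, microglia and oligodendrocyte markers described later, that median was -1.14, -2.32 and -2.18. The fitted median in resilient over non-defeated mice was 0.62, and in susceptible over resilient mice it was 0.00. Within libraries 1 to 6 and 7 to 11, the median differences were 0.57 and 0.60.

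Pericyte and smooth muscle markers were higher as well: 3 of 12 (25%, against 6.61% of all genes) at an unadjusted p under 0.05, none lower, with a median of 0.52. Without non-defeated 1, 6 were higher. The fitted median in resilient over non-defeated mice was 0.39, and in susceptible over resilient mice it was 0.13. Rgs5, a regulator of G protein signaling that marks pericytes, had 5.73, 7.67, 7.37 and 7.13 CPM in non-defeated and 10.6, 12.4 and 13.7 in susceptible libraries (log2 fold change 0.81, SE 0.16, adjusted p = 0.101). Kcnj8, the channel subunit of the pericyte ATP-sensitive potassium channel, had a log2 fold change of 1.16, and Higd1b one of 0.67. Neither Acta2, the actin of smooth muscle (0.24), nor Vtn (0.30) was near the threshold. Summed levels of the list were 42.9 to 59.3 CPM in non-defeated, 58.6 to 87.7 in susceptible, 49.3 to 84.4 in resilient and 33.3 to 37.7 in input libraries. Of 13 neutrophil genes only 5 could be tested, Pglyrp1 among them, with Mmp8 and Ngp at 0 in all 7 libraries, and Lcn2 had 0 to 0.112 CPM in non-defeated and 4.91, 0 and 0.715 in susceptible libraries. The high Lcn2 value was that of 1 mouse, susceptible 2.

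Genes stimulated by interferon and genes of MHC class I antigen presentation formed another group that was higher. Type I interferon induces them through a factor that binds the interferon-stimulated response element (ISRE), and MHC class I molecules with beta-2 microglobulin present peptides from proteasomes at the cell surface. The median log2 fold change of the 18 members was 0.49. Of these, 8 (44.4%, against 6.61% of all genes) were higher at an unadjusted p under 0.05 and none lower. Those with the smallest p were Bst2, Isg15 and H2-K1, and the other 5, listed after their values were seen, were Ifi27, Ifitm3, B2m, Oas1a and Psmb9. The 150 bases before the start of 4 of these genes are shown because they hold the ISRE core; capitals mark this core, GAAA, any 2 bases and again GAAA, on either strand, and overlapping matches are joined.
Bst2, chr8:71537473-71537622, minus strand: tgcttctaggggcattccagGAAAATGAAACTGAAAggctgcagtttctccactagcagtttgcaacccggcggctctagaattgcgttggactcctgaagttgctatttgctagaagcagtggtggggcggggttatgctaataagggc
Isg15, chr4:156200819-156200968, minus strand: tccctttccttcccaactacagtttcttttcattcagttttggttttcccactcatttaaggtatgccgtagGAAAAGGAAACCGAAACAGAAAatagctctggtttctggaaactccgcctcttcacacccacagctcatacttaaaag
Oas1a, chr5:120907526-120907675, minus strand: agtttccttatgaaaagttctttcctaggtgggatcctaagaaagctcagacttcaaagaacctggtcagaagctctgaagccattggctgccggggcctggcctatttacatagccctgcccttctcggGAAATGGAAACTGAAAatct
B2m, chr2:122147537-122147686, plus strand: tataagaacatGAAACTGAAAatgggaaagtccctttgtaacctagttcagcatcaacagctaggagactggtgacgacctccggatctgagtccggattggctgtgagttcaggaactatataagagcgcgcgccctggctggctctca

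Among the 16 list members with a RefSeq window, 7 held this core (Bst2, Isg15, Oas1a, B2m, Rsad2, Ifit1 and Ifit3), against 1.6% of all 27025 windows. Of the 7 at an unadjusted p under 0.05 that had a window, 4 held it, so the core was found in members that differed and in members that did not. Bst2, tetherin, which holds budding virus at the membrane, had 0.809, 0.618, 0.291 and 0.716 CPM in non-defeated and 1.57, 1.22 and 2.85 in susceptible libraries (log2 fold change 1.62, SE 0.36, adjusted p = 0.127). Isg15, a ubiquitin-like modifier, had 0.64 to 1.11 CPM against 1.62 to 2.19 (1.02, adjusted p = 0.191). H2-K1, a class I heavy chain, had 3.25 to 4.06 CPM against 4.01, 5.29 and 9.06 (0.80, adjusted p = 0.208), with susceptible 4 inside the non-defeated range. Ifit1, Ifit3 and Oasl2, which interferon also induces, had log2 fold changes of 0.13, -0.06 and -0.03. The mean level of the list was highest in susceptible 10, at 0.73 above the non-defeated mean on the log2 scale, and 0.28 and 0.16 above it in susceptible 2 and 4. Resilient libraries lay 0.14 to 0.51 above the same mean. Without susceptible 10, the members higher at an unadjusted p under 0.05 numbered 5.

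The choroid plexus, which secretes the cerebrospinal fluid, and the ciliated ependyma border the hippocampus in the lateral ventricle. All 13 of their markers had a higher fitted level in susceptible mice, 4 of them (30.8%, against 6.61% of all genes) at an unadjusted p under 0.05, with a median of 0.50. The fitted median in resilient over non-defeated mice was 0.42, and in susceptible over resilient mice it was 0.36. Summed levels were 496 to 682 CPM in non-defeated, 729 to 1398 in susceptible and 413 to 908 in resilient libraries. Ttr, the thyroxine carrier transthyretin, had 271, 212, 159 and 211 CPM in non-defeated and 404, 391 and 604 in susceptible libraries (log2 fold change 1.13, SE 0.27, adjusted p = 0.144), without overlap. Kcne2 and Folr1 had log2 fold changes of 0.96 and 1.02. The list was carried by 1 library: its mean level lay 1.17 above the non-defeated mean in susceptible 10 and 0.22 and 0.13 above it in susceptible 2 and 4, and non-defeated 1 reached 0.25. Without susceptible 10, 1 member was higher at an unadjusted p under 0.05, and without non-defeated 6 there were 2.

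**Figure D3:**
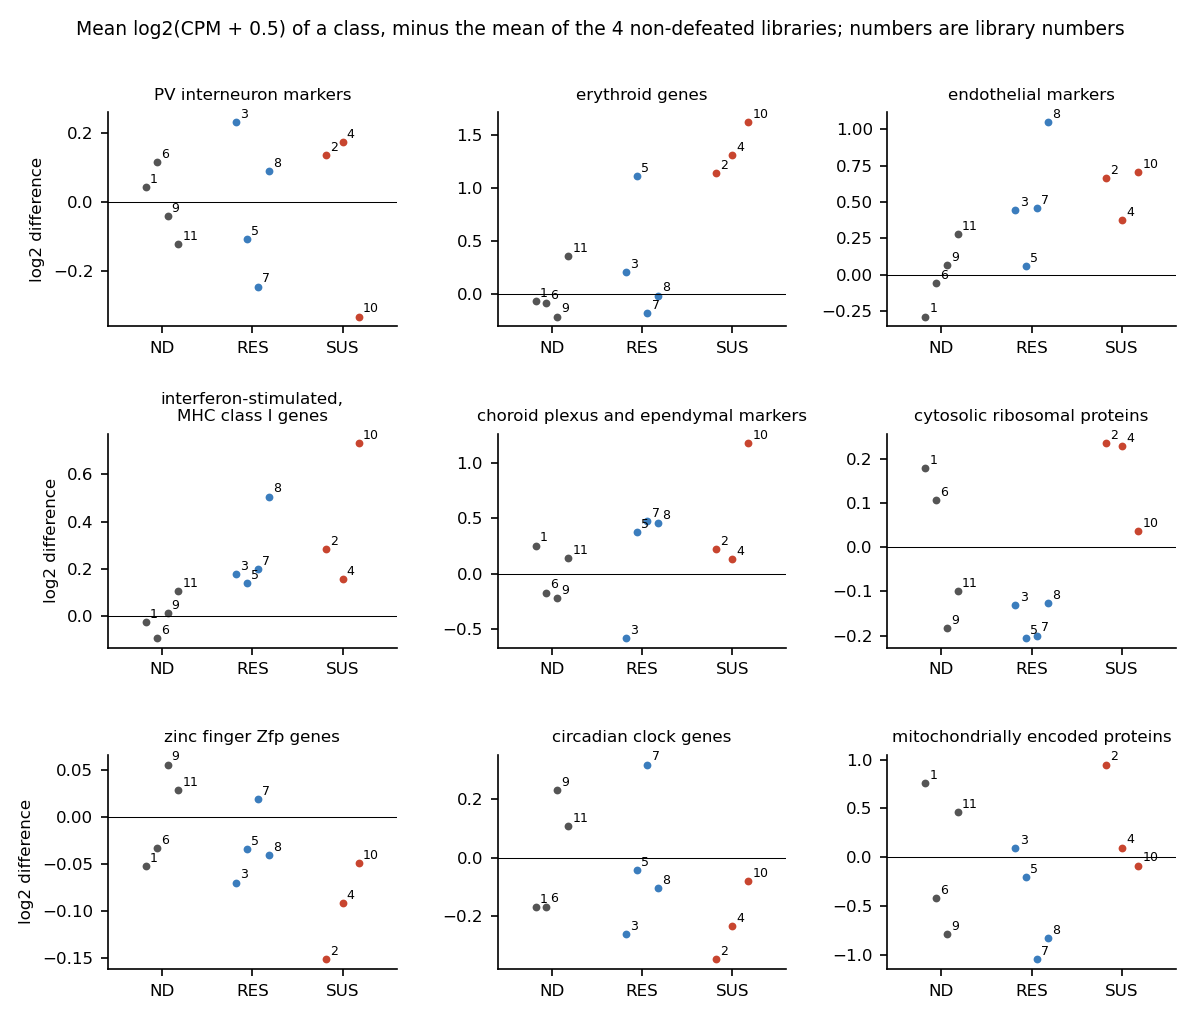
Mean log2(CPM + 0.5) of the members of 9 classes in each TRAP library, minus the mean of the 4 non-defeated libraries (y axis, log2 units); small digits are library numbers. Erythroid genes separate all 3 susceptible libraries from the non-defeated ones, whereas ribosomal protein, clock and zinc finger genes also differ between non-defeated libraries 1 and 6 and libraries 9 and 11.

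The remaining marker lists were those of glia and of other neurons. Of 15 astrocyte markers 2 (13.3%, against 6.61% of all genes) were higher at an unadjusted p under 0.05 (S100b, 0.48, and Aqp4, 0.50), of 15 microglia markers also 2 (Tyrobp, 1.12, and C1qb, 0.58) and of 15 oligodendrocyte markers 1 (Mal, 0.43), with none lower in any of the 3 lists. Summed levels overlapped between the groups, at 1284 to 1821 CPM against 1303 to 2242 for astrocytes, 45.1 to 61.8 against 49.8 to 66.7 for microglia and 980 to 1402 against 991 to 1582 for oligodendrocytes. Among the 7 libraries, susceptible 10 had the highest sum for all 3. The most abundant markers, Aldoc, Csf1r and Mbp, had log2 fold changes of 0.03, -0.03 and 0.19. None of the 10 markers of oligodendrocyte precursors and none of the 14 of granule cells passed an unadjusted p of 0.05, with medians of 0.06 and 0.02. For pyramidal cells the median was -0.01 over 15 markers, with Spink8 (0.48) and Grp (0.52) past that threshold. The log2 ratio of summed glial and endothelial markers to Pvalb was 0.88 to 1.49 in non-defeated and 0.91 to 1.83 in susceptible libraries. Among markers of other interneurons, 3 of 15 (20%) were higher at an unadjusted p under 0.05, namely Npy, Sst and Cck, with log2 fold changes of 0.65, 0.68 and 0.22. No member was past this threshold without non-defeated 11 or susceptible 2, and 1 was without non-defeated 9 or susceptible 4. Sst had 165 to 242 CPM in non-defeated and 365, 398 and 149 in susceptible libraries, so it was high in susceptible 2 and 4 and lowest of all in susceptible 10. Thalamic markers, a sign of tissue next to the hippocampus, were lower for 14 of 15 genes with a median of -0.54, but none passed an unadjusted p of 0.05. Their median difference was 0.16 within libraries 1 to 6 and -0.63 within libraries 7 to 11. Their summed level was 343 and 344 CPM in non-defeated 1 and 6 and 826 and 615 in non-defeated 9 and 11, against 364, 377 and 482 in susceptible 2, 4 and 10. With the marker ratio as a covariate among the TRAP libraries, edgeR's quasi-likelihood test called 55 genes, the 8 among them. The part of single marker lists in other results was not tested.

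Among the genes that fell, Xpo6 encodes exportin 6, which carries actin out of the nucleus. It lies on the minus strand of chromosome 7 (mm10, 126101715-126200501) and had 67.4, 63.3, 76 and 74.3 CPM in non-defeated and 43.2, 48.3 and 46.6 in susceptible libraries. The groups did not overlap, and the log2 fold change was -0.61 (SE 0.09, adjusted p = 0.0475). Resilient mice had 63.7 to 79.2 CPM, and Xpo6 was called lower than in these as well (log2 fold change -0.61, adjusted p = 0.0165). The gene with the smallest p was 4930500M09Rik, a noncoding gene on the plus strand of chromosome 1 (170214860-170216422) that overlaps the kinase gene Uhmk1 on the opposite strand. It had 4.43, 4.73, 5.69 and 5.73 CPM in non-defeated and 2.24, 2.3 and 2.42 in susceptible libraries (log2 fold change -1.15, SE 0.14, adjusted p = 0.0185). Since the library kit does not mark strand, reads from the stretch where this gene and Uhmk1 overlap cannot be assigned by strand. How such reads were counted is not given in the sources used here. Uhmk1 itself had a log2 fold change of -0.22 (adjusted p = 0.353) at 161 CPM in non-defeated mice. Gm20691, a processed pseudogene inside Ift80 on chromosome 3, had 2.31 to 2.94 CPM against 1.18 to 1.49 (-0.98, SE 0.16, adjusted p = 0.0484), while Ift80 had a log2 fold change of -0.10. ENSMUSG00000067833 and ENSMUSG00000072829 had log2 fold changes of -0.79 and -0.78, each at an adjusted p of 0.032, and went from 36 ± 2.82 and 68.4 ± 5.99 CPM (SD, n = 4) to 20.9 ± 1.29 and 39.8 ± 1.19 (SD, n = 3). The level of the latter was 1.74 to 2.08 times that of the former in every one of the 7 libraries, and whether they share reads was not tested.

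The 10 lower genes next in rank were Dvl3, Pcnx4, Ttpal, Wee1, Fam53c, Zfp109, Ralgps1, Spred1, Slc6a7 and Zfp251, with log2 fold changes from -0.42 to -1.02 and adjusted p from 0.0517 to 0.101. Dvl3, which relays Wnt signals from Frizzled receptors, had 40.2, 46.9, 50.9 and 43.8 CPM in non-defeated and 31, 30.9 and 29.6 in susceptible libraries (-0.58, SE 0.09, adjusted p = 0.0517). Against resilient mice it fell by 0.73 (adjusted p = 0.00903). Wee1, a kinase that holds back cell cycle entry, had 32.2 to 38.5 CPM against 21 to 26.2 (-0.59). Spred1, an inhibitor of Ras and MAP kinase signaling, had 79.8 to 97.4 CPM against 55.9 to 68.3 (-0.51). Slc6a7, the proline transporter of glutamatergic terminals, had 7.7 to 12.5 CPM against 4 to 5.91 (-1.02, SE 0.20, adjusted p = 0.101). The higher genes at this rank that mark neither blood nor vessels were Hnrnpa3, Gpx8, Cep290, Hmgn5 and Tdgf1. Hnrnpa3, an RNA-binding protein that accompanies mRNA, had 68.4 to 77.4 CPM against 88.7 to 103 (0.42, SE 0.08, adjusted p = 0.0893), and against resilient mice it rose by 0.61 (adjusted p = 0.00903). Cep290, a protein of the ciliary base, had 15.8 to 18.3 CPM against 24.1 to 24.3 (0.50, SE 0.10, adjusted p = 0.101). Tdgf1, an EGF-CFC co-receptor of Nodal, had 0.0697 to 0.108 CPM in non-defeated libraries, down to 5 reads, and 0.302 to 0.42 in susceptible ones. Of the 28 genes called or named by rank, 20 were also called, in the same direction, against resilient mice. The resilient comparison shares the susceptible libraries and is not independent of this one.

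Zinc finger transcription factors made up the largest class with lower members. The Zfp genes mostly encode KRAB repressors, which silence transposable elements and genes through heterochromatin. Of 374 tested, 54 (14.4%, against 6.7% of all genes) were lower at an unadjusted p under 0.05 and 5 higher, and 115 had a higher fitted level, with a median log2 fold change of -0.11. Zfp276 had 5.79, 5.69, 6.09 and 6.34 CPM in non-defeated and 3.57, 3.79 and 4.11 in susceptible libraries (-0.64, SE 0.13, adjusted p = 0.104), beside Zfp109 (-0.85) and Zfp251 (-0.45). In the other direction stood Zfp692, at 0.44. The median was -0.08 within libraries 1 to 6 and -0.10 within libraries 7 to 11. Leaving out 1 library at a time gave 34 to 64 lower and 4 to 11 higher members, the fewest lower without susceptible 2. Histone genes had 4 of 67 higher (5.97%, below the 6.61% of all genes) and none lower, with H3f3b at 0.20 and Hist1h2bc at 0.47. The higher ones numbered 19 without non-defeated 1 and 0 without non-defeated 9 or 11. The median difference of histone genes was -0.12 within libraries 1 to 6 and 0.46 within libraries 7 to 11. Among hnRNP and SR splicing factors, 6 of 31 (19.4%) were higher and 1 (3.23%) lower, with Hnrnpa1 at 122 to 137 CPM against 152 to 164 (0.27, adjusted p = 0.152) and Hnrnpul2 at 27.1 to 36.7 against 40 to 48.4 (0.47). Hnrnpll had a log2 fold change of -0.31.

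Ubiquitin ligases mark proteins for the proteasome, and deubiquitinases remove the mark. Of 239 tested, 39 (16.3%, against 6.7% of all genes) were lower and 9 higher at an unadjusted p under 0.05, with a median of -0.09. Usp28, a deubiquitinase that stabilizes Myc, had 6.9, 5.48, 6.51 and 6.1 CPM in non-defeated and 3.3, 3.05 and 4.5 in susceptible libraries (-0.79, SE 0.16, adjusted p = 0.101). Fbxl5, the iron-sensing F-box protein, had 69.2 to 88.5 CPM against 50.5 to 64.7 (-0.41), and Fbxo28 52.6 to 58.7 against 42.4 to 44.9 (-0.34). Rnf125, Fbxl22 and Trim41 were higher, at 1.30, 0.86 and 0.67. Without susceptible 2, 18 members were lower and 8 higher. Proteasome subunits had 4 of 39 (10.3%, against 6.61% of all genes) higher and 2 (5.13%) lower with a median of 0.04. Among them Psma4 had 101 to 109 CPM against 113 to 132 (0.23), while Psma8, the germ line form, had a log2 fold change of -1.09. Of 76 heat shock proteins and chaperones 10 (13.2%) were higher, among them Dnajc2 (0.31), Hspb1 (0.75) and Hspe1 (0.35), and 2 (2.63%) lower, Dnajc27 (-0.29) and Dnajb1 (-0.23). The higher ones numbered 2 without non-defeated 9, 4 without non-defeated 11 or susceptible 2 and 6 without susceptible 4. Targets of the unfolded protein response had 2 of 20 (10%) higher, Atf5 (0.50) and Ddit3 (0.30), and 1 (5%) lower, Edem1 (-0.42).

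Of 18 genes of the circadian clock, 5 (27.8%, against 6.7% of all genes) were lower at an unadjusted p under 0.05 and none higher, with a median of -0.22 and 16 with a lower fitted level. The clock is a loop in which Clock and Arntl drive Per and Cry, which repress them, and Nr1d1 and Nr1d2, which repress Arntl. Nr1d2 had 116, 118, 165 and 169 CPM in non-defeated 1, 6, 9 and 11 and 75.7, 99.1 and 87.1 in susceptible 2, 4 and 10 (-0.70, SE 0.16, adjusted p = 0.132). Tef, an output factor, had 162 to 199 CPM against 138 to 162 (-0.29), and Cry2 141 to 197 against 114 to 152 (-0.34). The other 2 were Cry1 (-0.35) and Nr1d1 (-0.28), named after their values were seen. Clock (-0.08) and Arntl (-0.06) stayed near 0. Levels differed as much between the non-defeated pairs as between groups: the class mean lay at -0.17 in both non-defeated 1 and 6 and at 0.23 and 0.11 in 9 and 11, against -0.35, -0.23 and -0.08 in the susceptible libraries. The hour at which each mouse was killed is not given in the sources used here. Within libraries 1 to 6 the median difference was -0.15, and within libraries 7 to 11 it was -0.24. Without susceptible 2, 3 members were lower at an unadjusted p under 0.05.

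Immediate early genes, which neurons transcribe within minutes of activity, had a lower fitted level in 20 of 22 cases. Of these, 5 (22.7%, against 6.7% of all genes) were lower at an unadjusted p under 0.05. The median log2 fold change was -0.15, and the median difference was -0.22 within libraries 1 to 6 and -0.01 within libraries 7 to 11. The fitted median in resilient over non-defeated mice was -0.13, and in susceptible over resilient mice it was -0.12. Dusp1, a phosphatase that ends MAP kinase signals, had 75.9 to 86.1 CPM in non-defeated and 53.5, 77.6 and 52.5 in susceptible libraries (-0.42, SE 0.13, adjusted p = 0.221), with susceptible 4 inside the non-defeated range. Homer1, a scaffold at glutamate synapses, had 52.2 to 68.6 CPM against 43.6 to 51.5 (-0.31), and Egr3 4.14 to 5.99 against 2.64 to 4.21 (-0.59). Fos and Nr4a1, the remaining 2, had log2 fold changes of -0.37 and -0.46. The list had 2 lower members at this threshold without non-defeated 11 or susceptible 4, and 3 without non-defeated 6, non-defeated 9 or susceptible 2. Bdnf, the growth factor, was higher, with 7.39, 8.09, 8.14 and 8.88 CPM against 9.63, 9.02 and 13.5 (0.40). Among glucocorticoid receptors and their targets, 4 of 17 (23.5%, against 6.61% of all genes) were higher and none lower: Cdkn1a, Mt1 and Nfkbia had log2 fold changes of 0.65, 0.59 and 0.31, and the other was Mt2. Without susceptible 2 or susceptible 10, 2 members of the list were higher. Cdkn1a, the cell cycle inhibitor p21, had 9.63 to 12.8 CPM against 13.8 to 20.4. Fkbp5, Sgk1, Tsc22d3 and the receptor gene Nr3c1 were not among them, with log2 fold changes of -0.19, -0.11, -0.12 and 0.01.

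**Figure D4:**
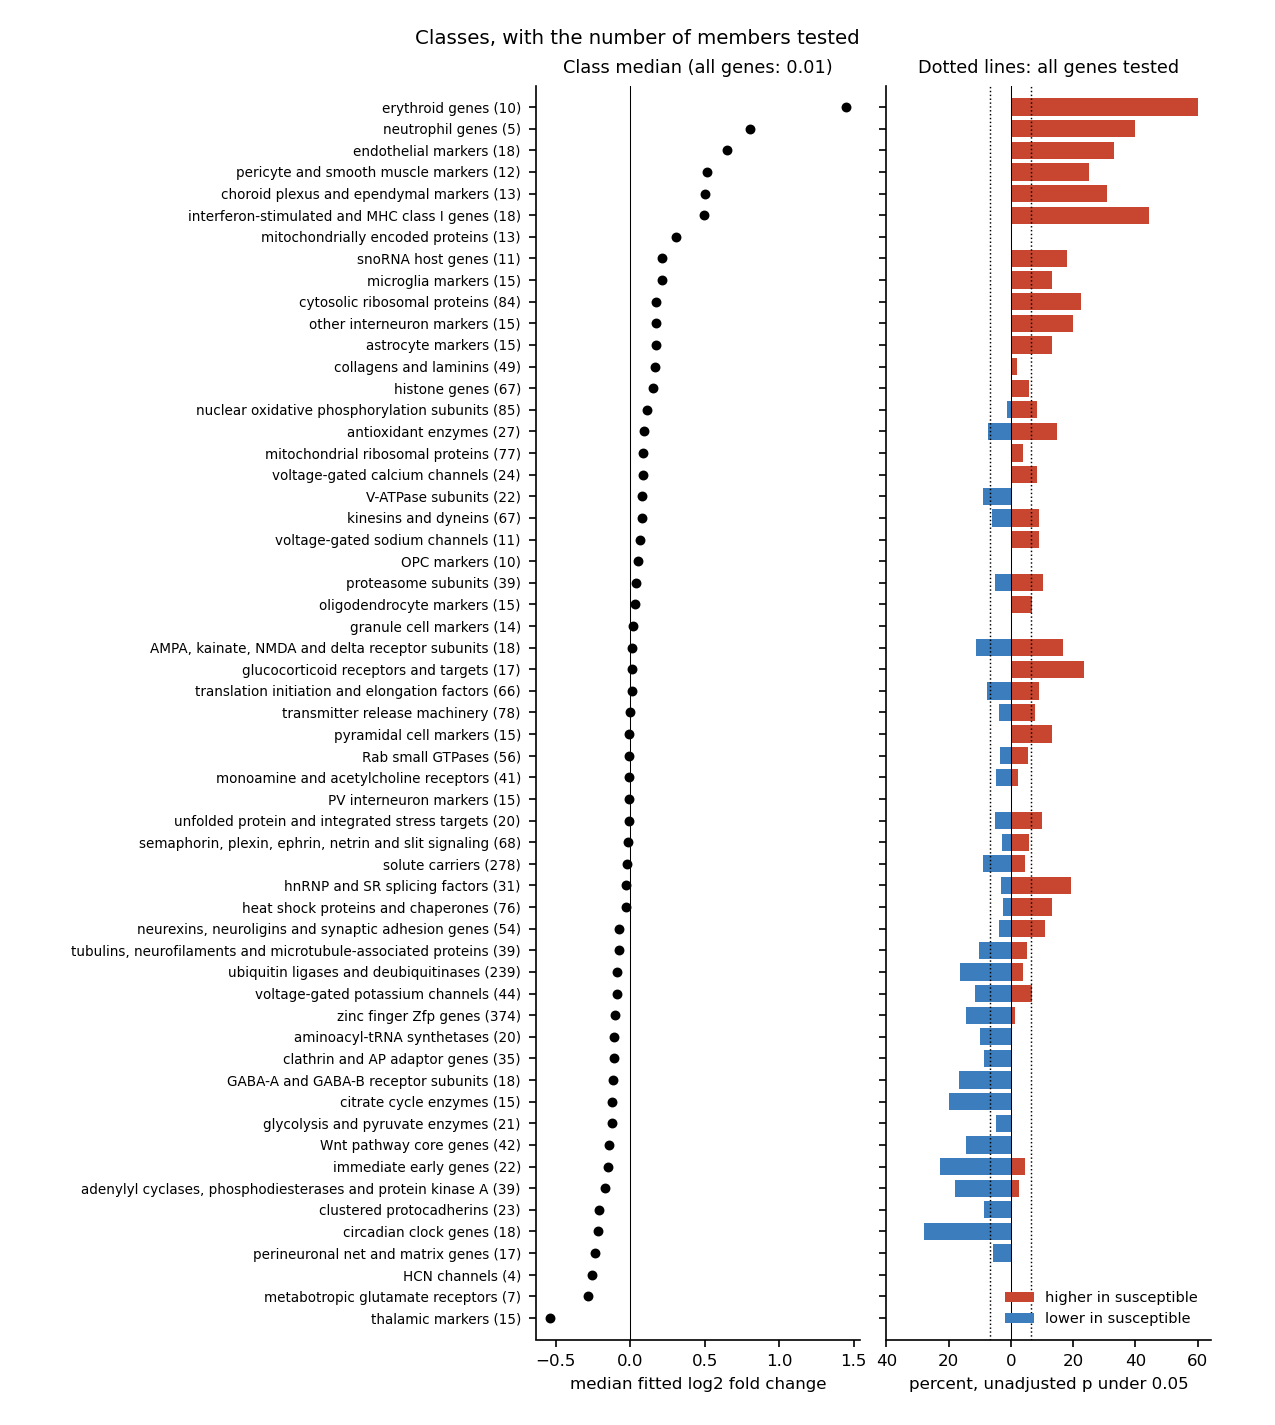
The 57 classes ordered by the median fitted log2 fold change of their tested members (left, number tested in parentheses) and the percent of members higher (right side) or lower (left side) at an unadjusted p under 0.05. Dotted lines mark 6.61% and 6.7%, the shares of all genes. Erythroid, vessel, choroid plexus and interferon classes are among those that exceed the first. Clock, immediate early, citrate cycle and zinc finger classes are among those that exceed the second.

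In energy metabolism, the respiratory chain makes most of the ATP and the citrate cycle feeds it with electrons. Of 85 nuclear subunits of oxidative phosphorylation, 7 (8.24%, near the 6.61% of all genes) were higher and 1 lower at an unadjusted p under 0.05, with a median of 0.11 and 68 with a higher fitted level. Ndufs5, of complex I, had 715, 692, 567 and 590 CPM in non-defeated 1, 6, 9 and 11 and 778, 883 and 650 in susceptible 2, 4 and 10 (0.26, SE 0.10, adjusted p = 0.318). Uqcrb and Ndufa5 had log2 fold changes of 0.29 and 0.23. In each of these, libraries 9, 10 and 11 were the lowest of their groups. Sdha, of complex II and the citrate cycle, had 650 to 940 CPM against 520 to 722 (-0.29). Idh3a had 621 to 731 CPM against 535 to 614 (-0.23, adjusted p = 0.228), and Ogdh 417 to 662 against 341 to 456 (-0.48). Thus 3 of 15 citrate cycle enzymes (20%, against 6.7% of all genes) were lower and none higher, or 5 lower without non-defeated 1 or susceptible 10. Dlat, of the pyruvate dehydrogenase complex, had 212 to 267 CPM against 178 to 202 (-0.32, adjusted p = 0.19). The count of higher respiratory subunits was 38 without susceptible 10, 18 without non-defeated 1, 11 without non-defeated 6, 2 without susceptible 4 and 0 without any of the other 3 libraries. Of the 13 proteins encoded by mitochondrial DNA, none passed an unadjusted p of 0.05, at a median of 0.31, and mt-Nd6 came closest (0.69, adjusted p = 0.454). Antioxidant enzymes had 4 of 27 (14.8%) higher, with Gpx8, Prdx6 and Sod1 at 0.95, 0.27 and 0.25, and 2 (7.41%) lower, Txnrd1 (-0.26) and Gclc (-0.31).

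Genes of the cytosolic ribosome were higher in fitted level for 82 of 84, with 19 (22.6%) past an unadjusted p of 0.05 and none lower, at a median of 0.17. Rpl5 had 151, 145, 141 and 142 CPM in non-defeated and 158, 182 and 163 in susceptible libraries (0.21, SE 0.07, adjusted p = 0.245). Rps27a had 142 to 180 CPM against 179 to 205 (0.28), and Rpl21 157 to 211 against 188 to 246 (0.30). The class mean lay 0.18 and 0.11 above the non-defeated mean in non-defeated 1 and 6 and lay at -0.18 and -0.10 in 9 and 11, so the non-defeated pairs differed by more than the class median. In susceptible 2, 4 and 10 it lay at 0.23, 0.23 and 0.04. Higher members at an unadjusted p under 0.05 numbered 50 without non-defeated 1, 48 without susceptible 10, 29 without non-defeated 6, and 2 to 5 without any of the other 4 libraries. Reads on ribosomal protein genes are shared with many processed pseudogenes, and how the authors treated such reads is not given in the sources used here. Mitochondrial ribosomal proteins had 3 of 77 higher (3.9%, below the 6.61% of all genes), Mrps33, Mrps36 and Mrpl17, at 0.32, 0.31 and 0.25. Without susceptible 10, 27 of them were higher. Translation factors had 6 of 66 (9.09%) higher and 5 (7.58%, near the 6.7% of all genes) lower (Eif5b 0.42, Eif2s2 0.34, Eif4e3 0.30, Eif5a2 -0.50, Eif4enif1 -0.24, Eif2b5 -0.23). Aminoacyl-tRNA synthetases had 2 of 20 (10%) lower, Iars (-0.51) and Wars (-0.24). Lower synthetases numbered 7 without non-defeated 1, 6 without susceptible 10, 1 without non-defeated 11 or susceptible 4 and 0 without non-defeated 9 or susceptible 2, and translation factors had 2 higher and 1 lower without susceptible 2.

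Of 44 voltage-gated potassium channel genes, 3 (6.82%, against 6.61% of all genes) were higher and 5 (11.4%, against 6.7%) lower at an unadjusted p under 0.05. Their median difference was 0.04 within libraries 1 to 6 and -0.24 within libraries 7 to 11. The lower ones numbered 2 without non-defeated 11 or susceptible 2 and 3 without non-defeated 6, non-defeated 9 or susceptible 10. Kcnq3, a subunit of the M current that limits repetitive firing, had 13.5, 16.3, 14 and 13.5 CPM in non-defeated and 22.4, 16.3 and 19.1 in susceptible libraries (0.43, SE 0.12, adjusted p = 0.191). Against resilient mice, at 10.1 to 13.1 CPM, it rose by 0.76 (adjusted p = 0.0225). Kcnd3, of the A-type current, had 9.35 to 10.4 CPM against 11.9 to 13.1 (0.35). Kcng4, a modifier subunit, had 69.3 to 92.4 CPM against 50.4 to 69.3 (-0.43), and Kcns1 2.8 to 9.6 against 3.12 to 4.25 (-0.99), with Kcnd1 at -0.39. The 4 HCN genes, pacemaker channels open at rest, all had lower fitted levels, with a median log2 fold change of -0.26 and none past an unadjusted p of 0.05. Scn2b (0.39) was the single sodium channel gene of 11 (9.09%) higher at an unadjusted p under 0.05. On the list of 24 calcium channel genes, which includes auxiliary subunits such as Cacng2, 2 (8.33%) were higher at that threshold, Cacna1b (0.61) and Cacng2 (0.56).

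Receptor and release genes follow, in classes of which a few members each passed an unadjusted p of 0.05. NMDA receptor subunits went both ways: Grin2b had 77.6, 74.5, 65 and 71.5 CPM in non-defeated and 109, 92.4 and 98.7 in susceptible libraries (0.47, SE 0.14, adjusted p = 0.192), whereas Grin1, the obligatory subunit, had 72.2 to 104 against 66.7 to 81.6 (-0.27). Grin3b and Grik5 were higher (0.65 and 0.27) and Grik2 lower (-0.46). Of 18 GABA receptor subunits 3 (16.7%, against 6.7% of all genes) were lower and none higher: Gabra3 (-0.54), Gabrb2 (-0.33) and Gabrr1, which was at 0 in susceptible 2 and 10. The median difference of the class was 0.04 within libraries 1 to 6 and -0.28 within libraries 7 to 11. Gabra3 had 14.2 to 21.3 CPM against 12.2, 15.6 and 8.54, and within libraries 1 to 6 its difference was -0.05. Without non-defeated 11 none of the 3 passed this threshold. Chrna7, the alpha 7 nicotinic receptor subunit, had 2.46 to 2.65 CPM against 1.65 to 1.81 (-0.57, SE 0.15, adjusted p = 0.18), and against resilient mice it fell by 0.95 (adjusted p = 0.0227). Cplx2, a complexin that clamps vesicle fusion, had 101, 89.9, 79.7 and 69.2 CPM in non-defeated and 147, 110 and 120 in susceptible libraries (0.56, SE 0.13, adjusted p = 0.145). Syn1, a vesicle phosphoprotein, was lower (-0.41, SE 0.15). In all, 6 of 78 release genes (7.69%, near the 6.61% of all genes) were higher and 3 (3.85%, against 6.7% of all genes) lower, with a median of 0.00. Endocytic adaptors had 3 of 35 (8.57%) lower (Ap2a1 -0.47, Snap91 -0.27, Synj2 -0.41), and synaptic adhesion genes 6 of 54 (11.1%) higher and 2 (3.7%) lower. The median difference of adhesion genes was 0.07 within libraries 1 to 6 and -0.21 within libraries 7 to 11. Lower adaptors numbered 11 without non-defeated 1, 9 without susceptible 10, 5 without non-defeated 6 and 1 without non-defeated 9, non-defeated 11 or susceptible 2. Adhesion genes had 2 higher without susceptible 2 and 6 lower without non-defeated 1. Nectin1 had 3.29 to 3.43 CPM against 4.64 to 7.01 (0.71, SE 0.17, adjusted p = 0.145), and Nlgn2, the neuroligin of inhibitory synapses, 10.5 to 20.7 against 19.6 to 29.9 (0.59).

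Adenylyl cyclases make cyclic AMP, phosphodiesterases break it down and protein kinase A responds to it. Of 39 genes for these proteins, 7 (17.9%, against 6.7% of all genes) were lower and 1 higher at an unadjusted p under 0.05, including Prkaca (-0.20), Pde1b (-0.31) and Prkacb (-0.29), with 12 lower without non-defeated 1 and 4 without non-defeated 9. The higher gene was Adcy9, with 6.76, 9.11, 7.05 and 9.07 CPM in non-defeated and 13.4, 12.2 and 12.3 in susceptible libraries (0.66, SE 0.15, adjusted p = 0.132), where it was higher than in resilient mice as well (0.72, adjusted p = 0.0389). Core genes of the Wnt pathway had 6 of 42 (14.3%) lower and none higher, with Dvl3 first and Axin1, of the complex that degrades beta-catenin, at 22.2 to 25.4 CPM against 18.2 to 20.7 (-0.27). Of 56 Rab GTPase genes, Rab5b had 93.5 to 104 CPM against 76.8 to 79.7 (-0.31, adjusted p = 0.132) and Rab14 420 to 447 against 488 to 507 (0.19). Microtubule genes had 4 of 39 (10.3%) lower, with Map4 at 621 to 752 CPM against 575 to 597 (-0.25), and 2 (5.13%) higher, Stmn2 (0.24) and Mapt (0.19). Solute carriers counted 25 of 278 (8.99%, near the 6.7% of all genes) lower and 13 (4.68%, below the 6.61% of all genes) higher. Slc9a7 (-1.05) and Slc39a9 (-0.61) were on one side and Slc6a8, the creatine transporter, on the other (0.47). Perineuronal net genes had 1 of 17 (5.88%) lower, the protease gene Adamts4 (-0.62), while Acan, the main proteoglycan of the nets around PV neurons, had a log2 fold change of -0.05.

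In the quartile of genes with the shortest exonic length, 36 to 1605 bases, 7.79% were higher and 3.96% lower at an unadjusted p under 0.05, with a median log2 fold change of 0.08. In the quartile with the longest, from 5797 bases, 5.33% were higher and 9.26% lower, with a median of -0.05. Split by mean level, the lowest quartile had 5.3% higher and 3.32% lower, and the highest 6.22% higher and 10% lower. Among 596 long intergenic noncoding RNAs, 42 (7.05%) were higher and 22 (3.69%) lower, with a median of 0.13. Splitting genes by their level in resilient TRAP relative to input uses libraries outside this comparison. The resilient mice were defeated and the input mice were not, so the split also carries differences between defeated and non-defeated mice. Of 2189 genes more than 2-fold higher in TRAP at an adjusted p under 0.05, 180 (8.22%) were higher in susceptible mice and 68 (3.11%) lower, with a median of 0.09. The 2666 genes lower in TRAP by the same criterion split evenly, at 173 higher and 158 lower. Of the 8 called genes, 4 belonged to those lower in TRAP and 1 to those higher.

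**Figure D5:**
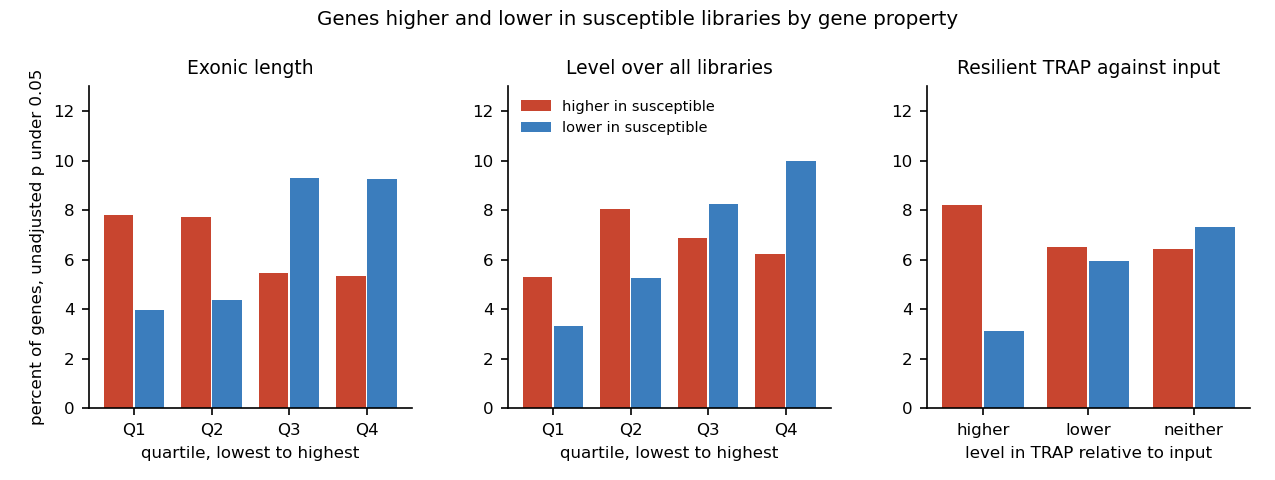
Percent of genes higher (red) or lower (blue) in susceptible libraries at an unadjusted p under 0.05 (y axis), by quartile of exonic length, by quartile of mean level and by level in resilient TRAP relative to input. Lower genes outnumber higher ones in the 2 longer quartiles and the 2 more abundant ones. Higher genes outnumber lower ones among transcripts higher in resilient TRAP than in input of non-defeated mice.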

How the data were processed

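Translating ribosome affinity purification libraries of hippocampal PV neurons and input libraries were deposited as 1 table of raw read counts per gene. According to the study's methods and the submitters' processing notes, the authors prepared libraries from 1 ng of RNA with SMART-Seq v4 and Nextera XT, which do not mark strand, sequenced 150-base single reads, trimmed them with fastp, aligned them to mm10 with STAR (2.5.3a in the notes) and made the deposited counts with HTSeq. The HTSeq version, annotation and handling of shared reads are not given in the sources used here. Gene names were taken from GENCODE mouse release 21, and 0.824% of counts fell on genes without a symbol. Total counts per library were 64110214 to 94726962, so counting error was small beside the spread between mice for all but the lowest genes.

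Groups were taken from the labels, and each library was 1 mouse. Counts were tested with edgeR 4.0.16 (R 4.3.3; filterByExpr, TMM, quasi-likelihood F-test, two-sided) in 1 model of all 14 libraries with a contrast of susceptible over non-defeated, with Benjamini-Hochberg adjustment over 21298 genes. SE was the absolute log2 fold change divided by the square root of F. CPM used TMM-scaled library sizes. The code was tested on simulated data. Genes were named if called, if among the 10 with the smallest p per direction whose groups did not overlap, if among up to 3 of smallest p per class and direction at an unadjusted p under 0.05, or as markers; any other is said to have been chosen after its values were seen or is given as a class member's value. The comparison, the classes and the lists were chosen with earlier results of these data known. "Higher" and "lower" describe fitted levels, and "rose" and "fell" only calls at an adjusted p under 0.05. Alternatives were a likelihood ratio test, DESeq2 1.42.0 on 7 or all libraries, RLE factors, other filters, TRAP libraries only, the 7 libraries only, the sample number or the marker ratio as a covariate, and leaving out each library. Promoter windows came from RefSeq (GRCm38.p6). Columns of the authors' own comparisons were not used. Some single-gene results are not reported here.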

Additional observations from a re-analysis of the deposited data

Results flagged for a closer look

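In 7 of 263 genes and classes tested, 1 of the 4 non-defeated libraries lay far from the other 3 by Dixon's criterion, and chance alone flags about 1 in 20 groups. Library 1 was the high one for Hmgn5, at 4.11 CPM against 3.08 to 3.19 in the others. For Pvalb, library 9 was the low one at 1265 CPM. Library 6 was the high one for Kcnq3, at 16.3 CPM. The lone value was 109 CPM for Psma4, 194 CPM for Psmb2, 130.3 CPM for Dnajb1 and 0.626 CPM for Ntn1.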

How the results depend on the processing

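The number of genes called at an adjusted p under 0.05 depended on the model more than on any other choice. Against 8 genes, a likelihood ratio test called 189, DESeq2 114 on the 7 libraries and 404 on all, RLE size factors 13, a minimum of 10 counts in every library 16, and the marker ratio as a covariate 55, and each of these sets held the 8. Without a filter on low counts 10 were called, 7 of the 8 among them. The 7 libraries alone gave 5 genes, of which 2 were among the 8. TRAP libraries alone and the sample number as a covariate gave 0 in edgeR's quasi-likelihood test, with 997 and 1348 genes higher and 1098 and 1282 lower at an unadjusted p under 0.05. Leaving out 1 library gave 0 to 6 calls, with 957 to 2041 genes higher and 940 to 1947 lower at an unadjusted p under 0.05. The counts at that threshold went to 803 higher and 880 lower with the 7 libraries alone, and to 2045 higher and 2332 lower with the marker ratio as a covariate. Over 3491 values of named genes under these settings, none that passed an unadjusted p of 0.05 as reported changed direction, 74 lost an adjusted p under 0.05 and 145 gained one. Of the class medians, 108 of 1083 moved by more than the spread between libraries, 20 of them within libraries 7 to 11, 12 within libraries 1 to 6 and 18 without susceptible 10. No paired analysis was possible because the groups share no sample numbers. The cause of these differences between settings was not tested.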
